A study of Mus musculus domesticus and Mus musculus domesticus x Mus musculus castaneus and Mus musculus castaneus with 27 samples.

Results

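Motor neurons (MN) made in culture from pluripotent stem cells of the strain CAST/EiJ (CAST) were compared with those made from C57BL/6 cells (BL6, written C57BL/6J in the design text), by RNA sequencing of polyadenylated RNA. The groups were taken by strain and cell type, which gave 1 CAST MN library and 7 BL6 MN libraries, 8 of the 27 samples of the series. Stem cell libraries are read beside them further below. So are MN libraries titled 129 (2) and those of the hybrids titled CAS129 (3) and 129CAS (1). CAST is an inbred strain derived from wild castaneus mice, while BL6 is a common laboratory strain. Neither group carries a stated transgene, deletion or drug, and the labels used here give no differentiation day, sort, clone number or batch. Since nothing in the labels ties the replicates to separate cultures, the spread behind the p-values may be technical. The CAST MN library held 8.65 M counts and the BL6 MN libraries held 7.6 to 10.36 M.

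Motor neurons are specified by transcription factors such as Isl1 and Mnx1, release acetylcholine, and take on a position along the body axis that is written in their Hox genes. Hox genes of low paralogue number mark hindbrain and neck levels, and those of high number mark the trunk. Retinoic acid, which Aldh1a2 makes, is among the signals that set this position. Neurons of CAST mice are known for regrowing axons after injury, and activin, whose subunit Inhba encodes, has been linked to that trait. The series was made to describe the identity of the cell lines, and the comparison of both strains' MN asks how alike the neurons are.

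For each gene it was recorded whether the CAST MN level lay above, below or inside the range of all 7 BL6 MN libraries. Levels are in CPM, the reads of a gene after bringing all libraries to a shared size. Of 14368 genes tested, 3466 (24.1%) lay above the BL6 range and 3454 (24.0%) below it. A gene was called when edgeR's quasi-likelihood test gave a Benjamini-Hochberg adjusted p under 0.05, and all adjusted p-values below are of this kind. In CAST MN, 588 genes (4.09%) were called higher and 584 (4.06%) lower, with a median log2 difference of -0.04 over all genes. Every called gene also lay outside the BL6 range. The test takes its spread from the BL6 libraries and assumes that CAST MN would vary like them, since CAST has 1 library. The split between both sides of the range depends on the scaling: with libraries scaled by their totals alone, 4764 genes lay above and 2516 below. An exact permutation test of 1 library against 7 could not go below p = 0.125.

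Features of the libraries that bear on every result come first. BL6 MN library 2 stood apart from the other 6 BL6 libraries: its correlation with them in log2 CPM was 0.926 to 0.969, and theirs with each other was 0.965 to 0.992. CAST MN correlated with it at 0.909, the highest of its 7 values. The other 6 were not evenly spread: BL6 MN 5 and 6 (0.992) and BL6 MN 3 and 4 (0.986) were the closest pairs. The labels do not say whether such pairs were made together, so the 7 libraries may not be 7 independent units. Without BL6 MN 2, 1447 genes (10.1%) were called higher and 1616 (11.3%) lower in CAST MN. Counts without it are therefore given beside the lists below, to be read against these shares. List counts with all 8 libraries are to be read against 4.09% of all genes called higher and 4.06% lower. Some genes were counted in 1 strain only. At least 1 CPM in CAST MN and no count in any BL6 MN library was found for 174 genes, 123 of them long non-coding and 27 protein-coding. These 174 genes entered the test through the CAST MN library alone. Of them, 112 are among the 588 genes called higher and so are part of the 4.09%. In the CAST stem cell libraries 151 and 153 of the 174 were counted, and 6 and 4 in the BL6 stem cell libraries. The reverse, 0 counts in CAST MN and at least 1 CPM in each BL6 library, was found for 37 genes. Of these, 30 are protein-coding and 34 are among the genes called lower. Differences in expression and differences in how reads of each strain were placed on the GRCm38 genome cannot be told apart for such genes. No strand setting is given either, so reads of genes that overlap on opposite strands cannot be told apart. Among the genes named below this touches Phox2a, Ebf2, Hoxa3, Rarb, Nefm, Syn2, Scn9a, Kcnj3, Robo2, Fgf13, Tgfb3, Chst11, Rtn4, Col4a1, Gfap, Grtp1, Gnas, Nnat, Meg3, Mirg, Rtl1 and Xist.

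The cell type label was checked against marker genes. Summed levels of 11 motor neuron markers were 2391 CPM in CAST MN, against 1482 to 2142 CPM in BL6 MN. CAST thus lay above the BL6 range, with none of the markers at 0. They were Isl1, Onecut2, Aldh1a2, Inhba, Mnx1, Chat, Slc18a3, Slc5a7, Isl2, Prph and Ret. Of this sum the activin subunit gene Inhba made up 239 CPM in CAST MN and 310 to 1044 CPM in BL6 MN. Prph made up 1133 CPM in CAST MN, the largest part there, and 330 to 1078 CPM in BL6 MN. It was not called itself (adjusted p = 0.26). Without Prph the CAST sum would not lie above the BL6 range, so its place above the range rests on this gene. Pan-neuronal markers (7 genes) summed to 3785 CPM in CAST MN, inside the BL6 range of 1321 to 4149 CPM, whose highest value was library 2. Mesenchyme and fibroblast markers (9 genes) summed to 8824 CPM in CAST MN, against 13979 to 31832 CPM in BL6 MN. The cultures of both strains held RNA of mesenchymal genes, with less of it in CAST. Neural progenitor markers (6 genes) were also below, at 226 CPM in CAST MN against 305 to 581 CPM in BL6 MN. Markers of endoderm and trophoblast (5 genes, Cdx2 at 0 in CAST) were at 14.8 CPM in CAST MN and 35 to 94.4 CPM in BL6 MN. Sensory neuron markers (6 genes, Prdm12 and Neurog1 at 0 in CAST) were at 212 CPM in CAST MN and 111 to 174 CPM in BL6 MN. Undifferentiated stem cell markers (6 genes, Pou5f1 and Tdgf1 at 0 in CAST) were at 2.38 CPM in CAST MN and 3.36 to 10.2 CPM in BL6 MN. Markers of glia, spinal interneurons, epithelium and dividing cells lay inside the BL6 range, with Sox10 at 0 in CAST. In these bulk samples, fewer cells of a type and less RNA per cell cannot be told apart, and the part of cell makeup in the results below was not tested.

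**Figure D1:**
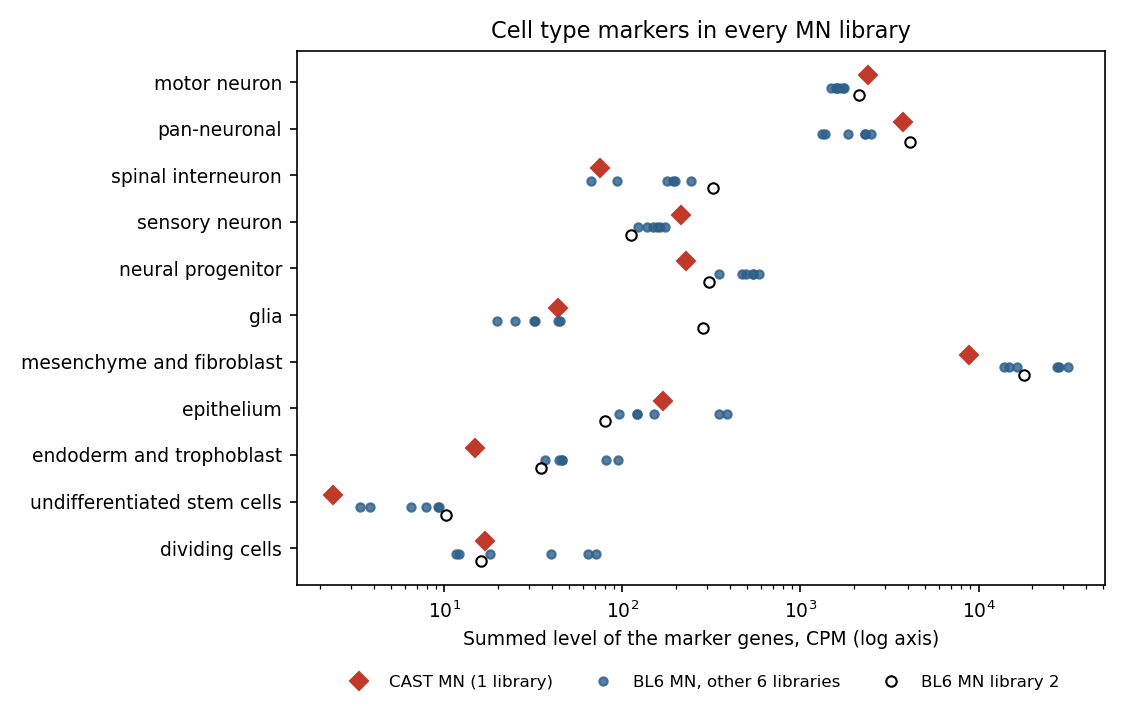
Summed level of each cell type's marker genes (CPM, log axis) in every MN library; each point is 1 library, the diamond is CAST MN and the open circle is BL6 MN library 2. CAST MN lies right of all BL6 libraries for motor neuron markers (2391 CPM, of which Prph made up 1133 CPM) and left of them for mesenchyme markers (8824 CPM).

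The transcription factors that set motor neuron identity differed in part. Of 15 tested members of this list, 3 rose in CAST MN (Isl1, Onecut2 and Onecut3), 2 fell (Ebf2 and Lhx4) and 10 were not called, where 4.09% of all genes rose and 4.06% fell. Without BL6 MN 2, 5 were higher and 2 lower. The list's median log2 difference was 0.27, and 0.70 without BL6 MN 2.

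Isl1 (ENSMUSG00000042258, chromosome 13, 116298281 to 116309689, minus strand, GRCm38) encodes a LIM homeodomain factor needed to make motor neurons. It stood at 75.5 CPM in CAST MN, against a lowest value of 6.77, a median of 13.5 and a highest of 18.7 CPM in BL6 MN. CAST lay far above every BL6 library, and the log2 difference was 2.40 ± 0.36 (SE, adjusted p = 0.0038). Onecut2 (ENSMUSG00000045991, chromosome 18, 64340020 to 64400987, plus strand) encodes a factor that acts with Isl1 in young motor neurons. Its level was 187 CPM in CAST MN, against 12.6, 22.3 and 31.2 CPM (lowest, median, highest) in BL6 MN, a log2 difference of 3.11 ± 0.34 (adjusted p = 0.00062). The groups did not overlap. Its relative Onecut3 was at 18.4 CPM in CAST MN and 0.394 to 2.86 CPM in BL6 MN (log2 difference 3.68, adjusted p = 0.0081).

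Phox2a, a homeodomain factor of hindbrain motor neurons, was singled out after its values were seen. It was at 50.4 CPM in CAST MN and 1.82 to 3.88 CPM in BL6 MN (log2 difference 4.19 ± 0.32, adjusted p = 8.8e-05). The groups did not overlap. Other neuronal genes singled out after their values were seen also lay above the range. The neuropeptide gene Cartpt was at 381 CPM in CAST MN and 12 to 46 CPM in BL6 MN. The calcium-binding protein gene Calb1 was at 163 CPM in CAST MN and 2.08 to 12.9 CPM in BL6 MN (adjusted p = 0.0031 for Cartpt and 0.00064 for Calb1).

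Lhx4, a LIM factor of early motor neurons, was at 0.517 CPM in CAST MN and 3.11 to 9.79 CPM in BL6 MN (log2 difference -3.48, adjusted p = 0.024). Ebf2 had 2 counts in CAST MN, 6.09% of the BL6 mean (95% exact Poisson interval 0.738 to 22%, counting error only). Its adjusted p was 0.041, and up to 0.073 with a BL6 library left out (lost without BL6 MN 1, 4, 5, 6 or 7). Mnx1, the classical motor neuron factor, was at 6.52 CPM in CAST MN and 1.94 to 10.8 CPM in BL6 MN, inside the range (log2 difference 0.52, adjusted p = 0.70). Tbx20 at 18.1 CPM in CAST MN and 5.61 to 39.4 CPM in BL6 MN, and Ebf3 at 34 CPM in CAST MN and 13 to 65.7 CPM in BL6 MN, were also inside it.

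**Figure D2:**
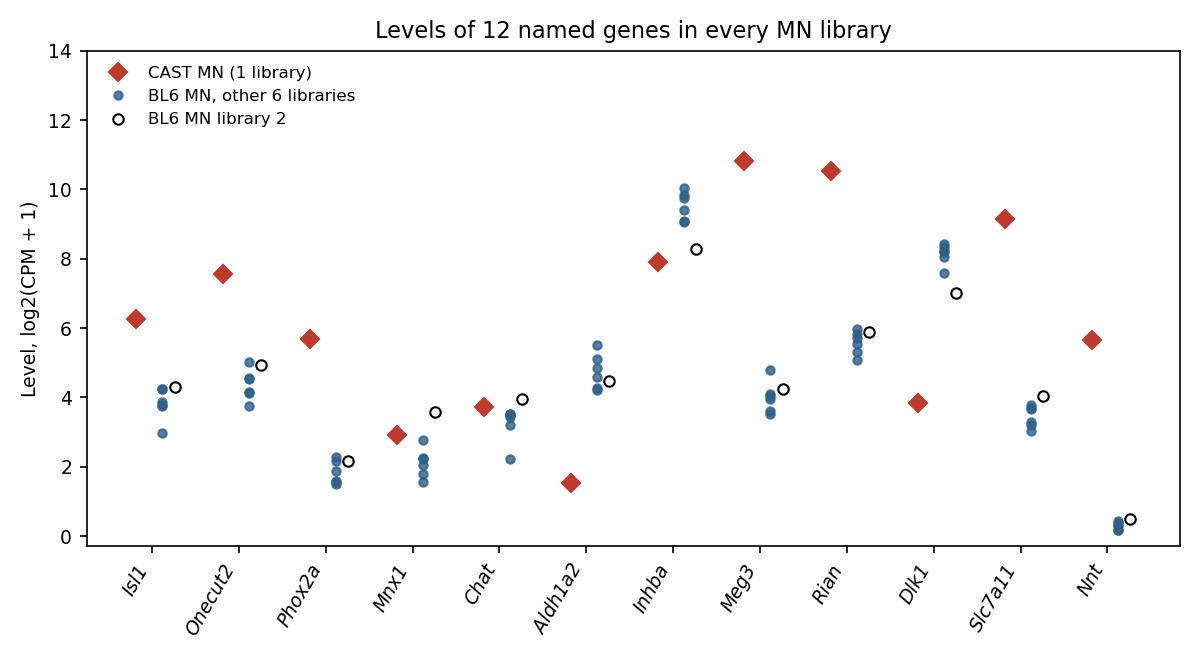
Level of 12 genes (log2 of CPM + 1) in every MN library, CAST MN as a diamond left of the 7 BL6 MN libraries; the open circle is BL6 MN library 2. Isl1, Onecut2, Phox2a, Meg3, Rian, Slc7a11 and Nnt lie above every BL6 library, Aldh1a2, Inhba and Dlk1 below, and Mnx1 and Chat inside.

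Motor column and pool genes, which set the muscle that a neuron contacts, showed 2 rises and 2 falls among 17 tested members. Over all genes 4.09% rose and 4.06% fell. Without BL6 MN 2 the list had 3 and 3, against 10.1% and 11.3% of all genes. Etv1, a pool factor, was at 39.7 CPM in CAST MN, against 5.05, 8.46 and 12.2 CPM in BL6 MN (log2 difference 2.16 ± 0.34, adjusted p = 0.0045). Pou3f1, another pool factor, was at 128 CPM in CAST MN and 11.8 to 46.9 CPM in BL6 MN (log2 difference 2.23, adjusted p = 0.020). Mecom, a factor of the median motor column, fell to 2.07 CPM in CAST MN, against 6.72 to 13.4 CPM in BL6 MN (log2 difference -2.31, adjusted p = 0.017). Foxp1, which marks limb-level columns, was at 94.1 CPM in CAST MN and 123 to 162 CPM in BL6 MN, below the range with an adjusted p of 0.091 (0.028 by DESeq2).

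The Hox genes split by their paralogue number. The split into low and high numbers was made after the values were seen and carries no test. Of 12 tested genes of paralogue groups 1 to 5, 4 rose in CAST MN and none was called lower, and 6 lay above the BL6 range and 1 below. Of 13 tested genes of groups 6 to 10, 6 fell and none was called higher, and 11 lay below the range and none above. Without BL6 MN 2 the counts were 4 higher in the low group and 8 lower in the high group. Median log2 differences were 0.56 for groups 1 to 5 and -3.70 for groups 6 to 10, or -2.52 with genes at 0 in CAST set to their bound. Over these 25 Hox genes the median was -0.64.

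Among the rises, Hoxb5 was at 81.3 CPM in CAST MN, against 13.6, 20 and 21.9 CPM in BL6 MN (log2 difference 2.09 ± 0.23, adjusted p = 0.00064). Hoxa4 was at 51.7 CPM in CAST MN and 11.6 to 20.5 CPM in BL6 MN (log2 difference 1.69, adjusted p = 0.0059). Hoxb4 was at 78.1 CPM in CAST MN and 27.8 to 45.5 CPM in BL6 MN (log2 difference 1.26, adjusted p = 0.013). All of these separated completely from BL6. Hoxa3 was at 39 CPM in CAST MN and 16.7 to 24.5 CPM in BL6 MN (log2 difference 1.0, adjusted p = 0.031, up to 0.064 and lost without BL6 MN 1, 5, 6 or 7). Hoxa5, at 84.2 CPM in CAST MN and 44.4 to 75.6 CPM in BL6 MN, lay above the range without being called (adjusted p = 0.22). Hoxc5 was the low-number gene below the range, at 16.4 CPM in CAST MN and 21.5 to 38.8 CPM in BL6 MN (adjusted p = 0.19).

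Hoxb9 (ENSMUSG00000020875, chromosome 11, 96271457 to 96276595, plus strand) had the smallest adjusted p of these falls. It was at 21.4 CPM in CAST MN, against 106, 115 and 145 CPM (lowest, median, highest) in BL6 MN, a log2 difference of -2.52 ± 0.26 (adjusted p = 0.00043). Hoxc6, a gene of forelimb-level motor neurons, was at 3.62 CPM in CAST MN and 31 to 65.9 CPM in BL6 MN (log2 difference -3.70, adjusted p = 0.0018). Hoxc8 and Hoxa7 were near 0 in CAST MN. Hoxc8 was at 0.414 CPM in CAST MN and 12.8 to 41.1 CPM in BL6 MN (adjusted p = 0.0041), while Hoxa7 was at 1.03 CPM in CAST MN and 19.6 to 55.3 CPM in BL6 MN (adjusted p = 0.0024). Hoxb8 was at 28.8 CPM in CAST MN and 47.5 to 80 CPM in BL6 MN (log2 difference -1.16, adjusted p = 0.038, up to 0.066 and lost without BL6 MN 1, 4, 5, 6 or 7). Hoxa10 had no count in CAST MN and 1.81 to 13.4 CPM in BL6 MN, at least 20.8-fold lower against a floor of 3 counts (adjusted p = 0.049, up to 0.075 and lost without BL6 MN 1, 4, 6 or 7). Hoxc9, at 0.414 CPM in CAST MN and 2.98 to 13.9 CPM in BL6 MN, lay below the range and missed the threshold (adjusted p = 0.053). The adjusted p of Hoxc9 was 0.037 without BL6 MN 2, up to 0.084 with another BL6 library left out, and 0.00067 by DESeq2.

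**Figure D3:**
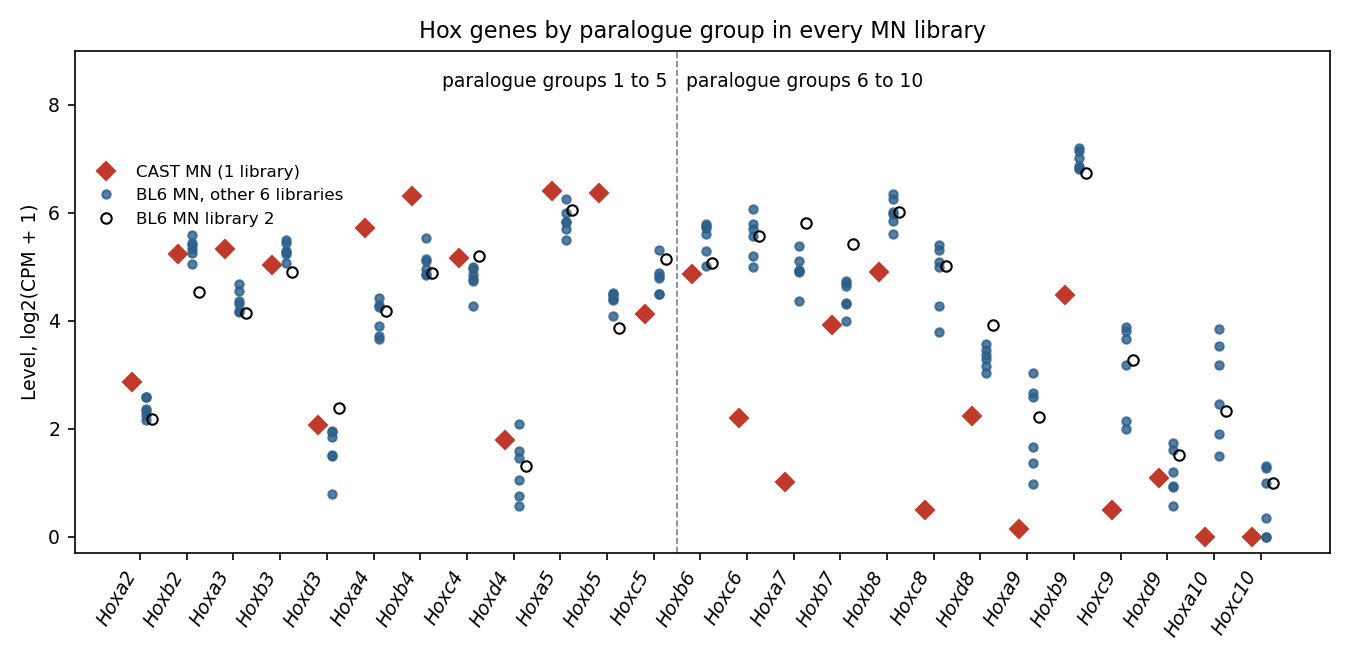
Level of 25 tested Hox genes (log2 of CPM + 1) in every MN library, ordered by paralogue number from left to right, with CAST MN as a diamond left of the 7 BL6 MN libraries. Left of the dashed line 6 of 12 genes lie above the BL6 range, and right of it 11 of 13 lie below.

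Genes of retinoic acid synthesis, breakdown and reception mostly lay low in CAST MN. Of 17 tested, 1 rose and 3 fell, where 4.09% of all genes rose and 4.06% fell. In this list 9 lay below the BL6 range and 3 above, against 24.0% and 24.1% of all genes. Without BL6 MN 2 the calls were 1 higher and 6 lower, against 10.1% and 11.3% of all genes. Aldh1a2 (ENSMUSG00000013584, chromosome 9, 71215789 to 71296243, plus strand), the synthesis enzyme made by limb-level motor neurons, was at 1.86 CPM in CAST MN. In BL6 MN its lowest, median and highest values were 17.6, 23 and 44.9 CPM, so that the groups were far apart (log2 difference -3.82 ± 0.66, adjusted p = 0.0081). Cyp26b1, which breaks retinoic acid down, was at 4.65 CPM in CAST MN and 19.8 to 46.9 CPM in BL6 MN (log2 difference -2.85, adjusted p = 0.012). The receptor gene Rarb, itself a known retinoic acid target, was at 1.55 CPM in CAST MN and 5.96 to 19.7 CPM in BL6 MN (adjusted p = 0.038, up to 0.061 and lost without BL6 MN 3, 4, 5 or 6). Crabp2, a carrier protein, rose to 52.2 CPM in CAST MN, against 23.7 to 34.2 CPM in BL6 MN (adjusted p = 0.030, up to 0.057 and lost without BL6 MN 1 or 7). Rdh10, at 52 CPM in CAST MN and 74.7 to 111 CPM in BL6 MN, lay below the range without being called.

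Few genes of the cholinergic list and of general neuronal function passed the test while BL6 MN 2 was kept. Over all genes 4.09% were called higher and 4.06% lower. Most members of each of these lists lay inside the BL6 range, as did 7448 of all 14368 genes tested. Of 19 tested members of the cholinergic list, none was called higher and 1 lower (Cd24a). The list also holds genes outside acetylcholine transmission, such as Cd24a, Prph, Ret and Gfra1. Of its members 8 lay above the range (24.1% of all genes did), 1 below and 10 inside, and the median log2 difference was 0.69. At an unadjusted p under 0.05, edgeR had 6 higher and 1 lower, and DESeq2 called 1 and 1. Without BL6 MN 2, 6 were higher and 1 lower. Chat, which makes acetylcholine, was at 12.2 CPM in CAST MN and 3.66 to 14.4 CPM in BL6 MN, inside the range. Cd24a, a surface protein gene, was at 31.9 CPM in CAST MN and 96.9 to 222 CPM in BL6 MN (log2 difference -2.35, adjusted p = 0.011).

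Of 20 pan-neuronal genes, edgeR called none, with 2 higher at an unadjusted p under 0.05, and DESeq2 called none. In this list 7 genes lay above the range and 13 inside, and the median was 0.70. In it 4 genes were called higher without BL6 MN 2. Tubb3, the neuronal tubulin, was at 1145 CPM in CAST MN, against 411, 594 and 1110 CPM in BL6 MN (log2 difference 0.86, adjusted p = 0.25). The adjusted p of Tubb3 was 0.023 without BL6 MN 2 and up to 0.32 with another BL6 library left out. Nefm, a neurofilament gene, was at 4819 CPM in CAST MN and 1585 to 4503 CPM in BL6 MN (adjusted p = 0.28).

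Of 31 synaptic genes, 3 rose, 11 lay above the range and 19 inside (median 0.68), and 11 were called higher without BL6 MN 2. Gabra2, a GABA receptor subunit, was at 83.7 CPM in CAST MN and 11.6 to 34.1 CPM in BL6 MN (log2 difference 2.14, adjusted p = 0.018). Syn2 and Rims1, genes of vesicle release, also rose. Syn2 was at 155 CPM in CAST MN and 34.6 to 88.4 CPM in BL6 MN (adjusted p = 0.046, up to 0.08 and lost without BL6 MN 1, 3, 4, 5, 6 or 7). Rims1 was at 85.3 CPM in CAST MN and 13.5 to 44.3 CPM in BL6 MN (adjusted p = 0.032, up to 0.063 and lost without BL6 MN 1, 5, 6 or 7).

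Of 24 ion channel genes, 3 rose, 7 lay above the range and 17 inside (median 0.78), and 11 were called higher without BL6 MN 2. Cacna2d1, a calcium channel subunit, was at 404 CPM in CAST MN, against 101, 121 and 177 CPM in BL6 MN (log2 difference 1.62 ± 0.25, adjusted p = 0.0046). Scn9a, a sodium channel, was at 115 CPM in CAST MN and 12.7 to 35.8 CPM in BL6 MN (adjusted p = 0.0042). Kcnj3, a potassium channel, was at 39.2 CPM in CAST MN and 3.52 to 10.9 CPM in BL6 MN (adjusted p = 0.0047). For both of these genes the highest BL6 value was library 2.

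Other neuron classes were also examined. None of 17 spinal interneuron genes was called by edgeR, with a median of -1.05. At an unadjusted p under 0.05 it had 3 higher and 4 lower, DESeq2 called 2 and 2, and without BL6 MN 2 edgeR called 1 and 1. Gad1, the GABA synthesis gene, was at 10.8 CPM in CAST MN and 11.5 to 117 CPM in BL6 MN. Of 8 sensory neuron genes, Pou4f1 and Runx3 rose, and 3 were higher without BL6 MN 2. Pou4f1, a factor of sensory neurons, was at 27.2 CPM in CAST MN and 1.68 to 5.42 CPM in BL6 MN (log2 difference 2.90, adjusted p = 0.0030). Runx3 was at 7.03 CPM in CAST MN and 0.394 to 2.03 CPM in BL6 MN (adjusted p = 0.038, up to 0.071 and lost without any of BL6 MN 1, 3, 4, 5, 6 or 7). None of 10 glial genes was called by edgeR or DESeq2, with 2 lower at edgeR's unadjusted p under 0.05 and 1 called higher without BL6 MN 2.

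Few genes of the activin lists were called, as was so over all genes (4.09% called higher and 4.06% lower). Inhba (ENSMUSG00000041324, chromosome 13, 16011851 to 16031621, plus strand), which encodes the activin A subunit, was at 239 CPM in CAST MN. In BL6 MN its lowest, median and highest values were 310, 675 and 1044 CPM, and the lowest was library 2. CAST thus lay below every BL6 library, with a log2 difference of -1.54 ± 0.59 (adjusted p = 0.15). Without BL6 MN 2 the log2 difference was -1.67 and the adjusted p 0.022, while with another BL6 library left out the adjusted p was up to 0.22. DESeq2 gave an adjusted p of 0.041, and the fit over all 14 MN libraries one of 0.068. Of the 4 ligand genes tested, only Mstn (myostatin) was called in the fit with all 8 libraries. It was at 7.34 CPM in CAST MN and 0 to 1.48 CPM in BL6 MN (adjusted p = 0.043, up to 0.082 and lost without BL6 MN 3, 5, 6 or 7, and 0.060 by DESeq2). Gdf11 was at 64 CPM in CAST MN and 44.9 to 55.4 CPM in BL6 MN, above the range and not called.

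Of 18 receptor and Smad genes, 1 rose, and 3 were higher and 4 lower without BL6 MN 2. Tgfbr1, a type I receptor of TGF-beta, was at 172 CPM in CAST MN, against 61.1, 89 and 93.7 CPM in BL6 MN (log2 difference 1.0 ± 0.21, adjusted p = 0.019). Bmpr2 was at 327 CPM in CAST MN and 176 to 312 CPM in BL6 MN, above the range and not called. Of 15 antagonist and ligand genes, 1 fell, and 2 were higher and 4 lower without BL6 MN 2. Tgfb3, a TGF-beta ligand, was at 57.1 CPM in CAST MN and 218 to 533 CPM in BL6 MN (log2 difference -2.64, adjusted p = 0.035, up to 0.059 and lost without BL6 MN 1 or 7). Fstl1, a follistatin-like protein, was at 875 CPM in CAST MN and 1278 to 2498 CPM in BL6 MN, below the range with an adjusted p of 0.17.

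Of 29 axon growth and regeneration genes, 1 rose and 2 fell in CAST MN, with a median of 0.07. Over all genes 4.09% rose and 4.06% fell. Without BL6 MN 2, 7 were higher and 5 lower, against 10.1% and 11.3% of all genes. Gal, the injury-induced neuropeptide galanin, was at 41.8 CPM in CAST MN and 4.92 to 17.2 CPM in BL6 MN (log2 difference 2.07, adjusted p = 0.031, up to 0.06 and lost without BL6 MN 1 or 6). Sprr1a, induced in regenerating sensory neurons, was at 1.65 CPM in CAST MN and 8.27 to 12.6 CPM in BL6 MN (log2 difference -2.62, adjusted p = 0.0045). Rab27b, a vesicle traffic gene, was at 12.7 CPM in CAST MN and 26.9 to 45.8 CPM in BL6 MN (adjusted p = 0.042, up to 0.072 and lost without BL6 MN 1, 5 or 6). Map1b, a microtubule protein of growing axons, was at 4030 CPM in CAST MN and 1445 to 3241 CPM in BL6 MN (adjusted p = 0.12). The adjusted p of Map1b was 0.0032 without BL6 MN 2 and up to 0.18 with another BL6 library left out. Dpysl3, another growth cone gene, was inside the range at 1822 CPM in CAST MN and 1645 to 2317 CPM in BL6 MN.

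Of 23 genes of growth inhibition, 1 rose and 1 fell, where 4.09% of all genes rose and 4.06% fell. Without BL6 MN 2, 4 were higher and 3 lower, against 10.1% and 11.3% of all genes. Rtn4r, the Nogo receptor, was at 17 CPM in CAST MN, against 0.493, 0.906 and 3.45 CPM in BL6 MN (log2 difference 3.59 ± 0.64, adjusted p = 0.0093). Chst11, which sulphates chondroitin, was at 65.4 CPM in CAST MN and 137 to 221 CPM in BL6 MN (log2 difference -1.40, adjusted p = 0.017). Rtn4, the ligand Nogo, was inside the range at 1382 CPM in CAST MN and 1376 to 1744 CPM in BL6 MN. Among 26 guidance genes, Robo2, a Slit receptor, was the call, at 280 CPM in CAST MN and 46.6 to 107 CPM in BL6 MN (log2 difference 2.14, adjusted p = 0.0052). In the guidance list 6 were higher and 3 lower without BL6 MN 2, and DESeq2 called 2 and 2. Among 17 tested genes listed under neurotrophic factors the call was Fgf13, at 349 CPM in CAST MN and 33.1 to 84.8 CPM in BL6 MN (log2 difference 2.79, adjusted p = 0.0018). Its place in the list does not mean that it acts as a neurotrophic factor. In that list 4 were higher and 1 lower without BL6 MN 2, and DESeq2 called 2 and 1.

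Most genes of the mesenchyme list lay low in CAST MN. Of 18 mesenchyme and fibroblast genes, 3 fell, 14 lay below the BL6 range (24.0% of all genes did), 4 inside and none above. The median was -1.46, and 10 were lower without BL6 MN 2. Col1a1, a collagen gene, was inside the range at 4277 CPM in CAST MN and 4044 to 12263 CPM in BL6 MN (adjusted p = 0.48). Sparc, a matrix protein gene, was at 1502 CPM in CAST MN, against 3651, 5594 and 6991 CPM in BL6 MN (log2 difference -1.92 ± 0.45, adjusted p = 0.031, up to 0.066 and lost without BL6 MN 1, 4, 5, 6 or 7). Pdgfrb, a receptor of pericytes and fibroblasts, was at 42.6 CPM in CAST MN and 119 to 247 CPM in BL6 MN (log2 difference -2.19, adjusted p = 0.0074). Thy1 was at 65.1 CPM in CAST MN and 160 to 310 CPM in BL6 MN (adjusted p = 0.025). Basement membrane collagens were among the falls with the largest difference in CPM: Col4a1 was at 1219 CPM in CAST MN and 3131 to 7624 CPM in BL6 MN (adjusted p = 0.031, up to 0.065 and lost without BL6 MN 1, 4, 5, 6 or 7). Bgn (biglycan) was another, at 199 CPM in CAST MN and 658 to 1379 CPM in BL6 MN (adjusted p = 0.012). None of 19 matrix protease and inhibitor genes was called by edgeR with all 8 libraries, although 2 were higher and 8 lower at an unadjusted p under 0.05. DESeq2 called 1 higher and 6 lower, and edgeR without BL6 MN 2 called 2 and 9. The mesenchyme marker sum given above was lower too, but it holds genes named here, such as Col1a1 and Pdgfrb. Its part in these lists was not tested.

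**Figure D4:**
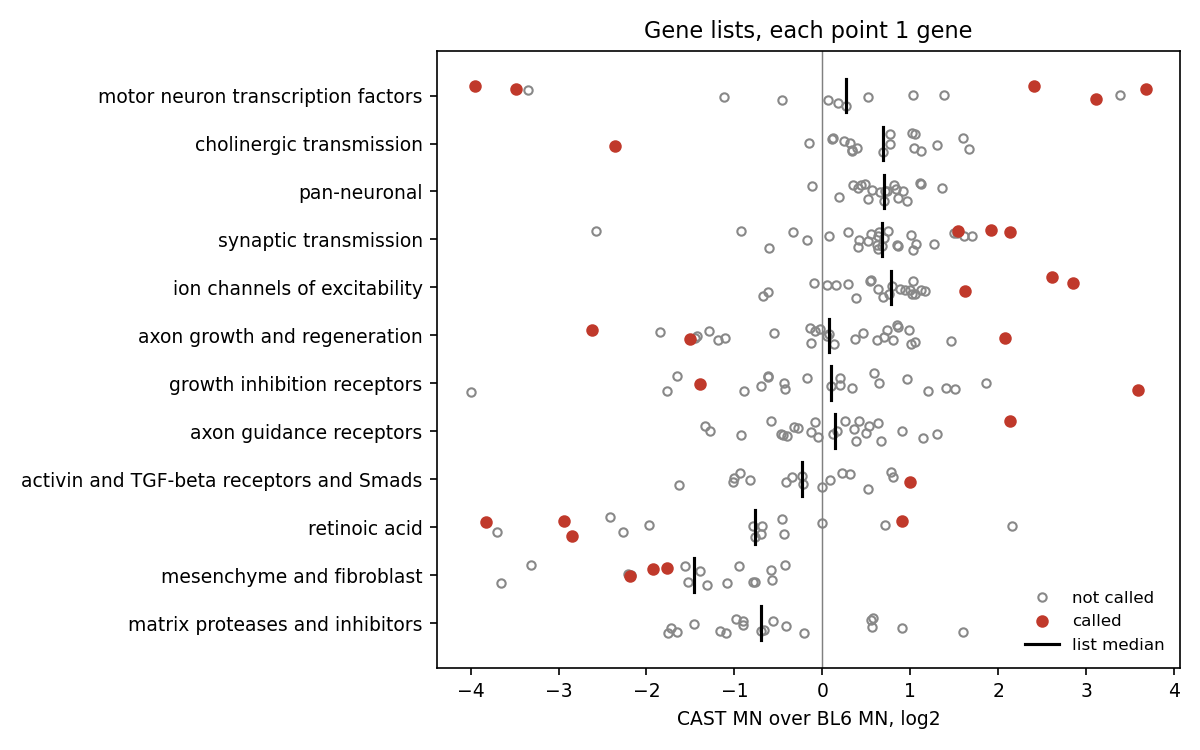
Log2 difference of CAST MN over BL6 MN for the tested genes of 12 lists; each point is 1 gene, filled where called, and the bar is the list median (0.78 for ion channels, -1.46 for mesenchyme). Acvr1c, at 0 in CAST MN, is left out of the points.

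Imprinted genes, expressed from the allele of 1 parent, held 6 rises and 4 falls among 22 tested members, and 8 and 5 without BL6 MN 2. The rises included the non-coding RNAs of the Dlk1-Dio3 cluster on chromosome 12, which are expressed from the maternal allele. Meg3 (ENSMUSG00000021268, chromosome 12, 109541001 to 109571726, plus strand) was at 1805 CPM in CAST MN, against 10.6, 15.5 and 26.8 CPM (lowest, median, highest) in BL6 MN. The log2 difference was 6.81 ± 0.30 (adjusted p = 5.5e-06), with no overlap between the groups. Rian was at 1492 CPM in CAST MN and 33 to 61.7 CPM in BL6 MN (log2 difference 4.92, adjusted p = 5.9e-06). Mirg, named after its values were seen, was at 36.6 CPM in CAST MN and 0.887 to 3.3 CPM in BL6 MN (adjusted p = 0.00043). Rtl1, a paternally expressed gene of the cluster named likewise, was at 15.5 CPM in CAST MN and had no count in BL6 MN, at least 319-fold higher.

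Dlk1 (ENSMUSG00000040856, chromosome 12, 109452823 to 109463336, plus strand), the paternally expressed ligand of this cluster, went the other way. It was at 13.2 CPM in CAST MN, against 129, 290 and 341 CPM in BL6 MN (log2 difference -4.31 ± 0.61, adjusted p = 0.0030). Igf2r, a maternally expressed receptor on chromosome 17, was at 74.2 CPM in CAST MN and 404 to 771 CPM in BL6 MN (log2 difference -2.90, adjusted p = 0.0039). Grb10, a growth restraint gene, was at 56.7 CPM in CAST MN and 189 to 480 CPM in BL6 MN (adjusted p = 0.018). Peg10 was at 2146 CPM in CAST MN and 578 to 1150 CPM in BL6 MN (adjusted p = 0.041, up to 0.079 and lost without BL6 MN 4, 5, 6 or 7).

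Slc7a11, the cystine importer that supplies glutathione synthesis, was the call among 12 antioxidant genes, at 566 CPM in CAST MN and 7.23 to 15.4 CPM in BL6 MN (log2 difference 5.70 ± 0.26, adjusted p = 5.5e-06), and without BL6 MN 2 the list had 1 higher and 2 lower. In the interferon list 2 of 14 rose and 3 fell, and without BL6 MN 2 the counts were again 2 and 3. Ifit1 was at 21.3 CPM in CAST MN and 2.88 to 7.29 CPM in BL6 MN, while Ifitm3 was at 14.6 CPM in CAST MN and 48 to 127 CPM in BL6 MN (adjusted p = 0.0066 for Ifit1). For Ifitm3 the adjusted p was 0.032, up to 0.058 and lost without BL6 MN 5. Of 13 glycolysis genes, Pgam1 rose to 347 CPM in CAST MN, against 142 to 225 CPM in BL6 MN (adjusted p = 0.030, up to 0.062, lost without BL6 MN 1, 5, 6 or 7). Hk2 fell to 33.6 CPM in CAST MN, against 67.9 to 151 CPM in BL6 MN (adjusted p = 0.026, up to 0.052, lost without BL6 MN 1 or 5). The glycolysis list had 3 higher and 1 lower without BL6 MN 2. Of 12 neural progenitor genes 1 fell, Pax6, at 0.414 CPM in CAST MN and 2.27 to 5.81 CPM in BL6 MN (adjusted p = 0.028, up to 0.053, lost without BL6 MN 5), and 2 were lower without BL6 MN 2. Of 17 immediate early and stress genes 1 fell, Hspb1, and 6 were lower without BL6 MN 2. edgeR called no gene among 16 cell cycle, 7 pluripotency, 7 endoderm and trophoblast or 8 keratin genes, and 2 pluripotency genes were called lower without BL6 MN 2. At an unadjusted p under 0.05 these lists held 2 genes higher and 4 lower in all, and DESeq2 called 2 lower. Xist, of the sex-linked list, was at 1.76 CPM in CAST MN and 0.245 to 1.18 CPM in BL6 MN (adjusted p = 0.33).

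The largest fold differences were mostly genes near 0 in 1 strain. All 10 of the largest rises had no count in any BL6 MN library. They included Myadm, a membrane protein gene at 325 CPM in CAST MN (at least 6690-fold higher), B4gat1 at 101 CPM in CAST MN (at least 2081-fold higher) and 6 predicted genes that overlap another gene on the opposite strand. Among the 10 largest falls all had no count in CAST MN. They included mt-Cytb, the mitochondrial cytochrome b gene, at 1077 to 4757 CPM in BL6 MN (at least 7463-fold lower), and Fau, a ribosomal protein gene at 176 to 295 CPM in BL6 MN (at least 816-fold lower). Ribosomal protein genes, which every cell uses and which have near-identical copies, moved both ways: Rpl13a was at 379 CPM in CAST MN and 9.65 to 16.1 CPM in BL6 MN. Rpl38 was at 0.621 CPM in CAST MN and 116 to 269 CPM in BL6 MN. Such values are uncertain as levels of expression.

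The largest differences were therefore also listed among genes with at least 1 count in all 8 libraries and 10 CPM in a group, a choice made after the data were seen. Of all genes counted in the 8 libraries, 370 were called higher and 487 lower. This choice still keeps genes near 0 in 1 strain. Tufm had 2 counts in CAST MN, against 69.8 to 98 CPM in BL6 MN. mt-Ts1 was at 514 CPM in CAST MN and 0.776 to 12.5 CPM in BL6 MN. For such genes, with Jund and Hspb1 below among them, differences in expression and in read placement cannot be told apart either. Jund, a transcription factor gene, led the rises at 230 CPM in CAST MN and 0.197 to 1.1 CPM in BL6 MN (log2 difference 8.79, adjusted p = 5.5e-06). Nnt encodes a mitochondrial transhydrogenase that is known to be disrupted in C57BL/6J mice. It was at 49.6 CPM in CAST MN and 0.129 to 0.394 CPM in BL6 MN (log2 difference 7.52, adjusted p = 5.5e-06). This is a check of the BL6 label only. Scaled over 14 libraries, Nnt was at 51.9 and 64.5 CPM in 129 MN too, so it cannot check the CAST label. Hspb1, a small heat shock protein gene, led the falls at 0.414 CPM in CAST MN and 225 to 647 CPM in BL6 MN (log2 difference -10.06, adjusted p = 0.00022). Kcnk9, a potassium channel gene, had 3 counts in CAST MN, 0.238% of the BL6 mean (95% exact Poisson interval 0.049 to 0.695%), against 55.7 to 266 CPM in BL6 MN.

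The strain difference was also measured in undifferentiated pluripotent stem cells (PSC), with 2 CAST and 2 BL6 libraries that are separate from the MN libraries. The PSC fit also held 2 CAS129 hybrid PSC libraries, 6 in all, which add to its spread estimate. Of the genes tested in both cell types, 1222 (9.71%) were called in PSC. Of 990 genes called in MN and tested in PSC, 375 were called in both, 37.9% of the MN calls and 30.7% of the PSC calls. Both differences had the same sign for 364 genes and the opposite sign for 11. Their median absolute log2 difference in MN was 4.51, and it was 1.58 for the MN calls not called in PSC. Of 177 genes called higher by over 8-fold in CAST MN and tested in PSC, 142 were called higher in CAST PSC too, and of 147 such falls 89 were called lower there.

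Jund, Nnt, Rpl13a and Rpl38 differed in PSC as in MN, with log2 differences in PSC of 8.45, 7.58, 4.89 and -6.24. Hspb1 had a log2 difference of -9.35 in PSC (adjusted p = 0.00015). Axial and identity genes gave other values. Isl1, Onecut2, Hoxa4, Hoxb5 and Hoxb8 were too low in PSC to be tested there. Hoxb9 had a PSC log2 difference of 0.98 (adjusted p = 0.64) and Hoxc6 of -0.42 (adjusted p = 0.85). Aldh1a2 had -0.74 (adjusted p = 0.54) and Inhba -2.64 (adjusted p = 0.12).

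Whether the strain difference itself differed between MN and PSC was tested as an interaction over 12 libraries, which called 585 of 15357 genes (3.81%). It was called for 145 of the 990 genes, and for 27 of the 150 named genes tested in both cell types. The interaction uses the same MN libraries that gave the 990 calls and many of the named genes. These counts are therefore not independent of that choice and cannot be weighed against the 3.81%. Phox2a had a log2 difference of differences of 5.87 (adjusted p = 0.0015), with -1.60 in PSC. For Meg3 it was 4.21 (adjusted p = 0.0053), with 2.70 in PSC, and for Dlk1 it was -6.29 (adjusted p = 0.00087), with 2.07 in PSC. Among Hox genes tested in both cell types it was called for Hoxc8 at -6.29 (adjusted p = 0.045), Hoxa7 at -4.12 (adjusted p = 0.029), Hoxa3 at 3.0 (adjusted p = 0.029), Hoxb3 at 3.20 (adjusted p = 0.010) and Hoxb4 at 1.91 (adjusted p = 0.041). It was not called for Isl1 (adjusted p = 0.22), Onecut2 (0.22), Aldh1a2 (0.056) or Inhba (0.49).

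**Figure D5:**
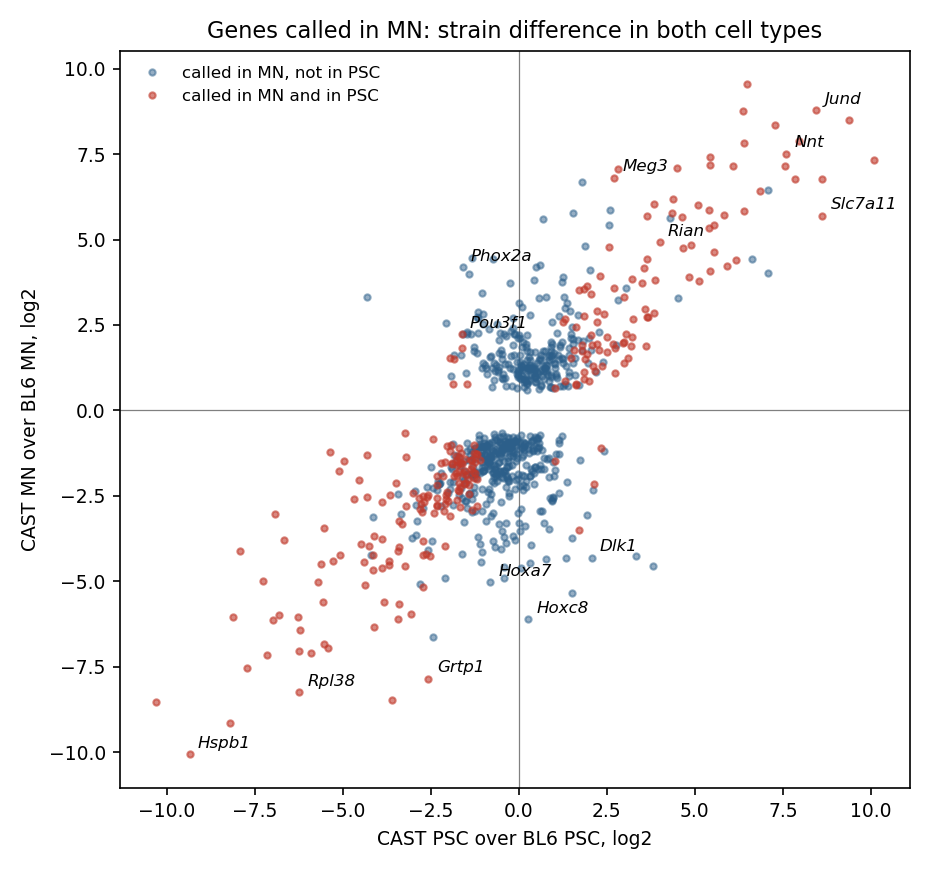
Strain difference (log2) of 856 genes called in MN and counted in both strains of both cell types, in MN on the vertical axis and in PSC on the horizontal axis; the 250 red points were called in both. Jund, Nnt and Hspb1 lie near the diagonal, and Phox2a, Hoxc8 and Dlk1 lie off it.

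Some of these genes, chosen after their values were seen, were read in the other MN groups of the series, scaled together over 14 libraries. Isl1 was at 76.7 CPM in CAST MN, 65.1 CPM in the 129CAS hybrid library, 7.28 to 12.4 CPM in 3 CAS129 hybrid libraries, 10.3 and 13.6 CPM in 129 MN and 6.89 to 19 CPM in BL6 MN. Phox2a was at 51.2 CPM in CAST MN, 35.5 CPM in 129CAS MN, 8.31 to 11 CPM in CAS129 MN, 2.9 and 3.34 CPM in 129 MN and 1.85 to 3.94 CPM in BL6 MN. For both genes CAST MN and 129CAS MN were the highest libraries. Inhba was at 242 CPM in CAST MN, 271 CPM in 129CAS MN, 251 to 294 CPM in CAS129 MN, 172 and 248 CPM in 129 MN and 315 to 1062 CPM in BL6 MN. For Inhba every BL6 library lay above every other library. So it was for Hspb1, at 229 to 658 CPM in BL6 MN and 0.42 CPM in CAST MN. Hspb1 was at 0.283 CPM in 129CAS MN, 0.884 to 2.75 CPM in CAS129 MN and 0.137 and 0.178 CPM in 129 MN. Hoxc8 too was highest in BL6 MN, at 13 to 41.8 CPM, with 0.42 CPM in CAST MN. Hoxc8 was at 0.884 CPM in 129CAS MN, 3.36 to 8 CPM in CAS129 MN and 1.28 and 1.6 CPM in 129 MN. Meg3 was at 1833 CPM in CAST MN, 1729 CPM in 129CAS MN, 550 to 1292 CPM in CAS129 MN, 1178 and 1745 CPM in 129 MN and 10.7 to 27.3 CPM in BL6 MN, so that BL6 was again the group apart. Aldh1a2 was at 1.89 CPM in CAST MN, 6.08 CPM in 129CAS MN, 7.16 to 10.8 CPM in CAS129 MN, 13.6 and 17.6 CPM in 129 MN and 17.9 to 45.6 CPM in BL6 MN.

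For other genes the groups fell in another order. Onecut2 was at 190 CPM in CAST MN, 144 CPM in 129CAS MN, 4.21 to 6 CPM in CAS129 MN, 83.3 and 114 CPM in 129 MN and 12.7 to 31.8 CPM in BL6 MN, so that the 129 libraries were high too. Slc7a11 was at 575 CPM in CAST MN, 3.68 CPM in 129CAS MN, 309 to 342 CPM in CAS129 MN, 3.61 and 4.5 CPM in 129 MN and 7.36 to 15.6 CPM in BL6 MN. Here CAST MN and CAS129 MN were the high groups and 129CAS MN was low. Hoxb5 was at 82.6 CPM in CAST MN, 18.4 CPM in 129CAS MN, 4.33 to 8.48 CPM in CAS129 MN, 28.9 and 29.4 CPM in 129 MN and 13.8 to 22.2 CPM in BL6 MN, so that CAST MN stood alone. Hoxb9 was at 21.7 CPM in CAST MN, 64.1 CPM in 129CAS MN, 45.3 to 56.6 CPM in CAS129 MN, 71.9 and 78.6 CPM in 129 MN and 108 to 148 CPM in BL6 MN. Both the CAST and the BL6 libraries stood apart from the other groups for Hoxb9, CAST MN below them and BL6 MN above. Rtn4r was at 17.2 CPM in CAST MN, 9.84 and 13.2 CPM in 129 MN and 7.96 CPM in 129CAS MN. In CAS129 MN Rtn4r was at 1.33 to 2.91 CPM and in BL6 MN at 0.501 to 3.51 CPM. Tgfb3 was at 58 CPM in CAST MN, 67.9 and 164 CPM in 129 MN and 145 CPM in 129CAS MN. In CAS129 MN Tgfb3 was at 680 to 768 CPM and in BL6 MN at 222 to 541 CPM.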

How the data were processed

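RNA of 7 BL6 and 1 CAST motor neuron libraries was captured on oligo-dT beads and copied from random hexamers, per the labels' protocols. The values are whole-number counts per gene, not normalised, as deposited by the authors. STAR and the build GRCm38 (mm10) are named for them in the submitters' processing notes. The counting program, its annotation and strand setting, and any strain genome, are not given there or in the labels used here. Of 28 table columns, 20 were matched to samples by title and 8 were not used; 7 samples with no matched column were not analysed here. GENCODE M21 named 27030 of 27071 identifiers. Groups follow the titles.

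Genes with 1 CPM in 2 of 8 libraries, or in CAST MN, were tested with edgeR 4.0.16 in R 4.3.3 (TMM, glmQLFit, glmQLFTest, 2-sided, 6 residual degrees of freedom, Benjamini-Hochberg, 0.05) and the procedure was tested on simulated data. SE is the absolute log2 difference over the square root of F. PSC were fitted over 6 libraries and the interaction over 12. Totals were 8.65 M counts in CAST MN and 7.6 to 10.36 M in BL6 MN, and floors of 3 counts over a group are 0.31 CPM in CAST MN and 0.0486 CPM in BL6 MN; bounds and intervals cover counting error only. No 2 BL6 libraries agreed within sampling noise (chi-square per degree of freedom 2.96 to 120.66).

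The groups and the 31 gene lists were chosen with earlier results of these data known, and some genes were left out of them and are not reported here. The genes named are the 4 markers with Mnx1, Chat, Tubb3, Meg3 and Xist, up to 4 called members of each list (6 for the motor neuron, retinoic acid, activin and axon lists) and 2 not called, by mean CPM, the 10 largest rises and falls among called genes with 10 CPM, and the 5 with the largest CPM difference each way. Others are said to be chosen after their values were seen, as were the remaining Hox genes and those counted in all 8 libraries. Alternatives were RLE and upper-quartile scaling, DESeq2 1.42.0, other filters, all 14 MN libraries and each BL6 library left out.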

Additional observations from a re-analysis of the deposited data

Results flagged for a closer look

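In 22 of the named genes, 1 of the 7 BL6 MN libraries lay far from the other 6 in CPM by Dixon's test at 95%, which flags about 1 in 20 groups by chance. In 16 of them that library was BL6 MN 2, at the high end. Its values were 68.7 CPM for Aldh1l1 and 138 CPM for Gfap, both genes of astrocytes. Among neuronal channel and synapse genes they were 181 CPM for Cacna1a, 10.9 CPM for Kcnj3, 35.8 CPM for Scn9a, 44.3 CPM for Rims1 and 347 CPM for Sv2c. Among axon and cytoskeleton genes they were 3241 CPM for Map1b, 1078 CPM for Prph and 107 CPM for Robo2. The others were 12.9 CPM for Calb1, 65.7 CPM for Ebf3, 41.9 CPM for Hoxb7, 248 CPM for Lifr, 1.48 CPM for Mstn and 1.87 CPM for Tas1r1.

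In other libraries the outlying values were 45.7 CPM for Bst2, 7.29 CPM for Ifit1 and 2.96 CPM for Rps10, each the highest and all in BL6 MN 6. BL6 MN 7 had the highest Hoxb4 (45.5 CPM) and the lowest Tgfbr1 (61.1 CPM), and BL6 MN 4 the highest Nrp2 (282 CPM).

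The strain difference itself differed between MN and PSC, by the interaction test, for 27 of the 150 named genes tested in both cell types, genes chosen in part from the same MN libraries. It was larger toward CAST in MN for Phox2a (log2 difference of differences 5.87), Meg3 (4.21), Hoxb3 (3.20), Hoxa3 (3.0) and Hoxb4 (1.91). The same direction was found for Nnat (4.21), Krt8 (4.13), Pou3f1 (3.94), Cacna2d1 (3.54), Prph (3.46), Etv1 (2.60), Map1b (2.40), Foxp1 (2.39), Peg10 (2.37) and Gnas (1.66). Toward BL6 it was -6.29 for Dlk1, -6.29 for Hoxc8, -4.12 for Hoxa7, -5.21 for Grtp1, -4.79 for AI506816, -5.88 for Tmem185b and -2.83 for Slc7a11, with -2.87 for Igf2r, -2.84 for Sparc, -2.50 for Col4a1, -2.23 for Pdgfrb and -2.18 for Chst11. Slc7a11 was higher in CAST in both cell types, with a log2 difference of 5.70 in MN and 8.62 in PSC. Foxp1 was lower in CAST in both cell types, with a log2 difference of -0.64 in MN and -2.95 in PSC. Hoxb3 was inside the BL6 range in MN, at 31.6 CPM in CAST MN and 28.9 to 44 CPM in BL6 MN. Tmem185b had no count in CAST MN, so its fitted value depends on the prior count.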

How the results depend on the processing

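The counts of genes called (588 higher and 584 lower in CAST MN) moved most with 1 library. Leaving out each BL6 library in turn gave 438 to 1447 higher and 412 to 1616 lower, and both highest counts were without BL6 MN 2. Over all 14 MN libraries 1009 genes were higher and 1028 lower, and DESeq2 called 1166 lower; the cause was not tested. Fewer genes entered the fit without overlaps on the opposite strand (365 higher, 373 lower) and that of genes counted in all 8 libraries (370 higher), a choice made after seeing the data. RLE and upper-quartile scaling, no filter, a 10 CPM filter and leaving out genes at 0 in CAST MN kept both counts within 1.5 times, and each range and interaction count stayed within it under its alternatives. Of the 106 called genes among those named, none changed direction under any alternative, and 19 lost the call without BL6 MN 1 and 19 without BL6 MN 5, the highest numbers. Directions turned for named genes that were not called. Hoxb2 gave log2 values of 0.00 under RLE scaling and a 10 CPM filter, 0.01 under DESeq2 and -0.12 to 0.05 with a BL6 library left out. The leave-one-out ranges were -0.50 to 0.46 for Aldh1l1, -0.11 to 0.32 for Krt8 and -0.32 to 0.04 for Rrm2. No paired analysis was possible because CAST MN has 1 library, which shares 1 replicate number with BL6 MN. With 1 CAST library, the spread among CAST cultures is unknown.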
